A study of Mus musculus with 9 samples.

Results

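The hair keratins and keratin-associated proteins are the building material of the hair fibre and of the sheath that moulds it. The genes taken here were those with the symbol Krtap followed by a number, and the keratins Krt25 to Krt28, Krt31 to Krt36, Krt71 to Krt75 and Krt81 to Krt87, wherever a transcript cluster of the array carried that symbol alone. Of 30142 genes measured by such a cluster, 67 met the rule, 19 keratins and 48 Krtap genes of 25 families. Krt81 and Krt83 shared a cluster with several symbols and so were not members, and Krt85 and Krt87 were not analysed here. The values were RMA expression values on the log2 scale, and differences are given in log2 units.

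Hair is made only in the growing follicle, and the follicle cycles between growth and rest. Keratins pair as a type I and a type II protein to form filaments. Krt25 to Krt28 and Krt71 to Krt74 do so in the inner root sheath, and Krt75 in the companion layer outside it. Most of Krt31 to Krt36 and Krt81 to Krt86 do so in the cortex and cuticle of the hair shaft. Krt84, best known from the nail and the tongue, was counted with the shaft keratins by its number. The Krtap proteins form the matrix around the shaft filaments. They fall into high-sulfur and ultra-high-sulfur families, rich in cysteine, and glycine-tyrosine families, and most are made late, as cells of the shaft harden.

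The study took neck skin of male C57BL/6 mice aged 6 to 8 weeks in 3 groups of 3 arrays. Mice of the oxazolone and the urushiol group were sensitised with 2.0% of the allergen on the shaved abdomen and, 5 days later, painted on the shaved nape with 0.5% of it in 40 µl acetone, for 5 challenges up to day 8, with skin taken 4 hours after the last. Control skin is labelled healthy, and the sources used here do not say whether the control mice were shaved or painted. Oxazolone is a synthetic hapten, and urushiol is the allergen of poison ivy. Each array is labelled a biological replicate, and whether an array holds 1 animal or a pool is not given, so p-values measure the spread between these samples.

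The 9 arrays were alike in overall scale, with a median over all clusters of 5.53 to 5.64. Values reached 19.93 over all clusters and 18.25 among the members, above the log2 value of 16 at which a 16-bit scanner saturates, and no source explains this, so a difference may not equal the log2 of a ratio of RNA amounts. The epidermal keratin genes Krt5, Krt14, Krt1 and Krt10 lay between 15.68 and 19.22 on every array, as in skin, while Krt2, another epidermal keratin, lay at 4.49 to 4.64. In whole skin, fewer cells of a type and less RNA per cell cannot be told apart. Control replicate 3, known from earlier work on these data to carry signal of growing hair, stood apart from the other controls, and values below are given array by array and with and without it.

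In control replicates 1 and 2 the hair genes had a median close to that of all clusters, 5.55 and 5.53. On the other 7 arrays their median lay well above that of all clusters. The median over the 67 members was 5.74 and 5.63 in control replicates 1 and 2, and 9.59 in control replicate 3. It was 10.28, 12.89 and 10.93 in oxazolone replicates 1 to 3, and 10.25, 10.38 and 8.17 in urushiol replicates 1 to 3. In the first 2 controls, 37 members each lay above the median of all clusters of their array, against 60 to 65 on the other arrays. Control replicate 3 exceeded both other controls for 65 members. Oxazolone replicate 2 was the highest of the 9 arrays for 65 members, and urushiol replicate 1 for the remaining 2, Krt84 and Krtap20-2. Of the 7 arrays with hair signal, urushiol replicate 3 was the lowest for 52 members, and it lay below control replicate 3 for 64. All 3 oxazolone arrays lay above all 3 controls for 53 members, where 21.3% of all genes did so, and all 3 urushiol arrays for 3 members, where 21.1% did.

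**Figure D1:**
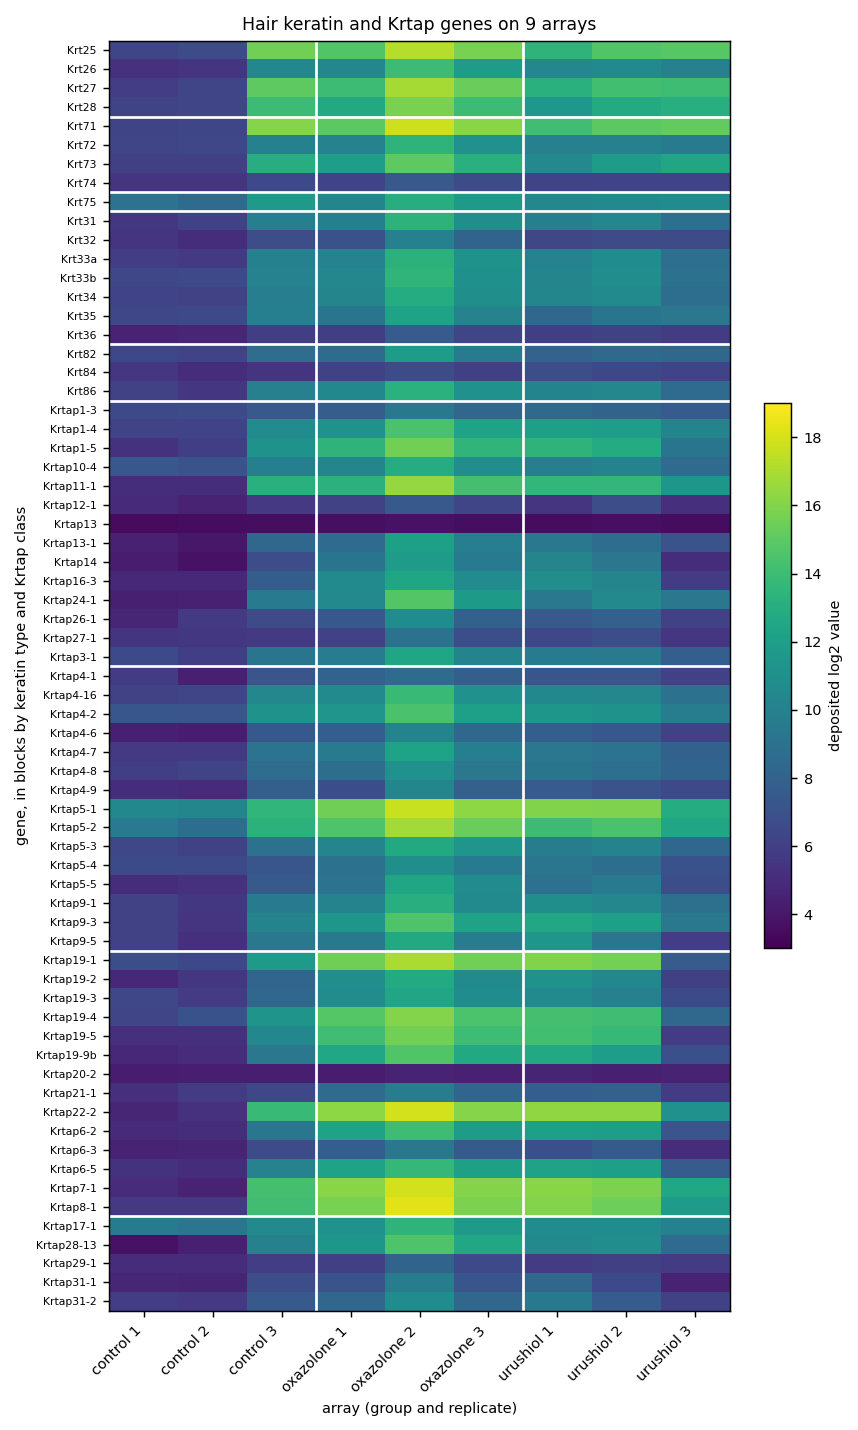
Deposited log2 value (colour) of each of the 67 genes (rows, in blocks from the root sheath keratins at the top to the glycine-tyrosine and other Krtap families at the bottom) on each of the 9 arrays (columns). Control replicates 1 and 2 are dark for nearly all genes, oxazolone replicate 2 is the brightest for 65 of 67, and urushiol replicate 3 is dark in the lower blocks while the top blocks keep their colour.

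The promoters of 5 members are shown because their genes stand for the patterns described below. Krt25 and Krt71 stand for the inner root sheath, Krtap8-1 and Krtap19-1 for the glycine-tyrosine families, and Krt84 is the member that went its own way. Each stretch runs from 250 bases before to 50 bases after the annotated start, on the minus strand of mouse build GRCm38.p6, from RefSeq: Krt25 at chr11:99322902-99323201, Krt71 at chr15:101743048-101743347, Krtap8-1 at chr16:89487903-89488202, Krtap19-1 at chr16:88869361-88869660 and Krt84 at chr15:101532771-101533070. Capitals mark the letters TATAAA, the core of a TATA box.
Krt25: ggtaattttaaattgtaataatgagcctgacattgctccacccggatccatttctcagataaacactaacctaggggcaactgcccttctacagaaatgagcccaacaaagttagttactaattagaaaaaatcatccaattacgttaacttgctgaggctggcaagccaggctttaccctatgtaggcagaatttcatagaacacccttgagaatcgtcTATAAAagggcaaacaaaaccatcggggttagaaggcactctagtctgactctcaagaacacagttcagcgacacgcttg
Krt71: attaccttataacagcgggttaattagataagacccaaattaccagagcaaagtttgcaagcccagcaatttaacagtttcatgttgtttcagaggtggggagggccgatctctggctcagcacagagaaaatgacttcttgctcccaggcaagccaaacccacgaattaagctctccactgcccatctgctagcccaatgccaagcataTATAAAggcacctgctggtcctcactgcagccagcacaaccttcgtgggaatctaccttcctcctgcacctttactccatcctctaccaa
Krtap8-1: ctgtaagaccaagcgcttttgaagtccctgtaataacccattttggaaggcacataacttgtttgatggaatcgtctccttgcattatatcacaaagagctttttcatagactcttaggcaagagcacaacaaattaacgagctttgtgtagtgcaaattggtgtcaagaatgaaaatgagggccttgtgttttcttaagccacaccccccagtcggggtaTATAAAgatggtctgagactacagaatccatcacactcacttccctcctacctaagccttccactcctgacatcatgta
Krtap19-1: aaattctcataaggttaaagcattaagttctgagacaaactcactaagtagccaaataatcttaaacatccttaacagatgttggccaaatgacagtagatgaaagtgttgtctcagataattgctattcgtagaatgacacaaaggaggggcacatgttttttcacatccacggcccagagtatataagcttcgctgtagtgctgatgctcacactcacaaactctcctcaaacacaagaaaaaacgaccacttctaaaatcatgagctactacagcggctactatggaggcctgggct
Krt84: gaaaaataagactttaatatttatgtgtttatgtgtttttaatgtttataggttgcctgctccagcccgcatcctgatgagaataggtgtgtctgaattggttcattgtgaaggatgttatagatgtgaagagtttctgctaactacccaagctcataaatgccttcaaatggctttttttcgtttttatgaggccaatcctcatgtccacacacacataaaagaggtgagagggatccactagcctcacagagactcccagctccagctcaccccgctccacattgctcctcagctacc

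A RefSeq promoter was found for 59 of the 67 members, and TATAAA stood on the gene's strand in 47 of them, 79.7%, against 8.32% of all 32851 promoters of this length. Within 40 to 21 bases before the start, 36 member promoters (61%) held it, against 1.99% of all. It was found at -30 in Krt25, -40 in Krt71 and -29 in Krtap8-1, and not in the windows of Krtap19-1 and Krt84. Only this spelling was searched, so those windows may hold a TATA box written otherwise. Motifs of hair transcription factors were counted on either strand. The TCF and LEF core, written CTTTGA, was present in 27.1% of the member promoters and in 16% of all promoters in the same table. The core bound by GATA factors was searched as AGATAA and was present in 23.7% of the member promoters and in 11.2% of all. Of 7 inner root sheath keratins with a promoter 4 held the GATA core and 1 the TCF and LEF core, and of 7 shaft keratins 0 and 4. The HOX13 core, TCGTAA, was in 1.69% against 1.6%. None of these motifs contains another, although their ends can overlap, neighbouring members share sequence by descent, and a match is a description of the letters.

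The inner root sheath keratins separated control replicate 3 from the other controls by a median of 7.30, and did not set urushiol replicate 3 apart. Krt71, a type II keratin of the sheath, was at 6.27 and 6.36 in control replicates 1 and 2 and at 16.12 in replicate 3. It lay at 14.99, 17.75 and 16.15 in oxazolone skin and at 14.10, 14.98 and 15.14 in urushiol skin. Thus 2 controls were far below every challenged array, and the third lay inside the challenged range. Krt25, a type I partner, followed it, with 6.36, 6.73 and 15.59 in control, 14.64, 17.23 and 15.79 in oxazolone and 13.41, 14.63 and 14.86 in urushiol skin. Krt27 and Krt28, further type I genes of the sheath, and Krt73, a type II gene, ran alike, with 15.02, 13.97 and 12.98 in control replicate 3 and 5.91 to 6.36 in the other controls. Krt26 and Krt72 had narrower gaps, with 10.40 and 10.04 in control replicate 3 and 5.27 to 6.41 in the other controls. Over the 8 genes, the gap of control replicate 3 over the mean of the other controls ran from 1.07 for Krt74 to 9.81 for Krt71. Krt74 was at 5.47, 5.42 and 6.51 in control, 6.26, 7.46 and 6.69 in oxazolone and 6.24, 6.25 and 6.26 in urushiol skin. In urushiol replicate 3, 6 of these 8 genes lay above the mean of urushiol replicates 1 and 2, with a median difference of 0.50, and the others were Krt26 and Krt72. All 8 lay below control replicate 3 there, by a median difference of -0.64. Krt75, the keratin of the companion layer, had a gap of 2.74 between control replicate 3 and the other controls, with 9.10, 8.6 and 11.59 in control, 10.26, 12.94 and 11.66 in oxazolone and 10.40, 10.58 and 10.70 in urushiol skin.

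Among the shaft keratins, urushiol replicate 3 was low for Krt31, Krt33a, Krt33b, Krt34 and Krt86, by -1.34 to -1.73 against the mean of the other urushiol arrays, and not for Krt32, Krt35 and Krt82. Krt33a, a type I keratin of the cortex, lay at 5.92, 5.74 and 10.01 in control, 10.11, 13.28 and 11.13 in oxazolone and 10.12, 10.80 and 8.83 in urushiol skin. Every oxazolone array was above every control, and urushiol replicate 3 was below control replicate 3. Krt31, another cortex keratin, gave 9.91 in control replicate 3, 9.91, 13.37 and 10.93 in oxazolone and 9.91, 10.40 and 8.82 in urushiol skin, over 5.61 and 6.16 in the other controls. Krt86, a type II partner of the cortex, lay at 6.12, 5.56 and 9.98 in control, 10.47, 13.23 and 11.08 in oxazolone and 10.19, 10.41 and 8.57 in urushiol skin. As for Krt33a, oxazolone replicate 2 was the highest array for both and urushiol replicate 3 was below control replicate 3, but for Krt31 oxazolone replicate 1 equalled control replicate 3. Krt35, made early in the shaft, was at 8.37, 9.19 and 9.37 in urushiol skin, so that replicate 3 was the highest of the 3. Krt32 and Krt82, keratins of the cuticle, differed by 0.13 and 0.07 in that array. Krt82 lay at 6.47, 6.2 and 8.69 in control, 8.63, 11.80 and 9.62 in oxazolone and 8.05, 8.51 and 8.35 in urushiol skin. Krt36 had a narrow range, with 4.50, 4.70 and 5.97 in control, 5.98, 7.57 and 6.33 in oxazolone and 5.97, 6.08 and 5.85 in urushiol skin.

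Grouped by family number, with protein composition not computed, 14 Krtap genes were placed in high-sulfur and 15 in ultra-high-sulfur families. Krtap11-1, a high-sulfur protein of the cortex, lay at 5.07, 5.09 and 13.14 in control, 13.27, 16.46 and 14.28 in oxazolone and 13.61, 13.58 and 11.48 in urushiol skin. Its oxazolone arrays all exceeded the controls, the lowest by a small margin over control replicate 3. Krtap5-1, an ultra-high-sulfur protein, had a higher value in the quiet controls, with 10.44, 10.37 and 13.50 in control, 15.55, 17.64 and 16.26 in oxazolone and 15.96, 15.89 and 12.92 in urushiol skin. It was measured by a second cluster too, which gave 9.87, 9.63 and 13.28, then 15.14, 17.34 and 15.91, then 15.31, 15.52 and 12.26 in the same order. Krtap16-3 had the widest gap among the genes grouped as high-sulfur, with 5.75 in urushiol replicate 3 against 10.88 and 10.26 in the others. That value was near the 4.85 and 4.81 of control replicates 1 and 2. Its difference of -4.82 was close to the median of -4.62 in the glycine-tyrosine families, and its class was not checked. All 29 genes of these families lay below the mean of the other urushiol arrays there, with medians of -1.67 for the high-sulfur and -1.65 for the ultra-high-sulfur families.

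Families differed in how far urushiol replicate 3 lay below the other urushiol arrays. The 7 Krtap4 genes, of the ultra-high-sulfur families, had differences of -0.83 to -1.65, and the 5 Krtap5 genes of -1.61 to -3.01. Krtap4-2, with the highest mean of its family, lay at 7.31, 7.24 and 11.23 in control, 11.33, 14.41 and 12.01 in oxazolone and 11.45, 11.23 and 9.69 in urushiol skin. Krtap9-5 had the widest gap of these families, -4.45, with 11.44, 9.31 and 5.93 in urushiol skin, where replicate 3 lay between the 6.18 and 5.14 of control replicates 1 and 2. Krtap14, a high-sulfur gene, was at 4.23, 3.79 and 6.77 in control, 9.23, 11.85 and 9.62 in oxazolone and 10.25, 9.33 and 5.07 in urushiol skin. Krtap17-1, a Krtap of the cuticle, had 9.26 or more in every control, with 9.54, 9.26 and 10.55 in control, 11.24, 13.43 and 11.66 in oxazolone and 10.71, 10.77 and 10.06 in urushiol skin. Krtap28-13 lay at 3.77 and 4.42 in control replicates 1 and 2 and 5.91 above their mean in control replicate 3, at 11.44, 14.59 and 12.53 in oxazolone and 10.55, 10.83 and 8.59 in urushiol skin. Krtap31-1 was the only member whose value in urushiol replicate 3, 4.51, was below the mean of control replicates 1 and 2, at 4.70 and 4.66.

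The glycine-tyrosine families set urushiol replicate 3 apart most. Krtap19-1 lay at 6.85, 6.44 and 11.66 in control and at 15.55, 16.94 and 15.61 in oxazolone skin. In urushiol skin it was 15.95 and 15.67 in replicates 1 and 2 and 7.60 in replicate 3. That array was thus nearer to the quiet controls than to its own group. Krtap19-5 gave the same order, with 5.20, 5.18 and 10.46 in control, a mean of 14.57 ± 0.91 (SD, n = 3) in oxazolone and 14.16, 13.73 and 5.87 in urushiol skin. Krtap22-2 was at 4.74, 5.25 and 13.84 in control, 16.25, 17.92 and 16.10 in oxazolone and 16.32, 16.32 and 11.08 in urushiol skin. Its urushiol replicate 3 was low within the group and still far above control replicates 1 and 2. Krtap8-1 was at 5.68, 5.63 and 14.08 in control, 15.75, 18.25 and 15.86 in oxazolone and 16.03, 15.49 and 11.77 in urushiol skin. Over the 14 genes the median difference of urushiol replicate 3 from the other urushiol arrays was -4.62, and over the 6 Krtap19 genes -5.61, from -3.66 for Krtap19-3 to -8.21 for Krtap19-1. In control replicate 3 the same 14 genes stood a median of 4.48 above the other controls, less than the 7.30 of the inner root sheath keratins, and in urushiol replicates 1 and 2 they stood 7.29 and 6.96 above those controls, more than the 5.14 and 6.13 of the sheath keratins.

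**Figure D2:**
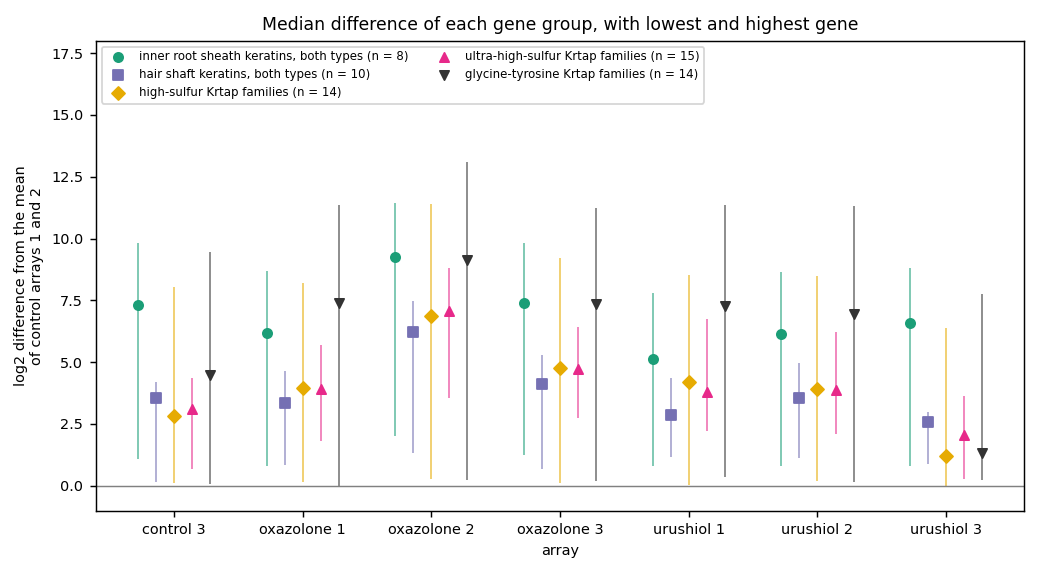
Difference of each array from the mean of control replicates 1 and 2 (vertical axis, log2 units) for 5 groups of genes: the marker is the median over the genes and the line runs from the lowest to the highest gene. In urushiol replicate 3 the inner root sheath keratins stay at 6.58 while the glycine-tyrosine families stand at 1.33, against 6.96 in urushiol replicate 2.

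**Figure D3:**
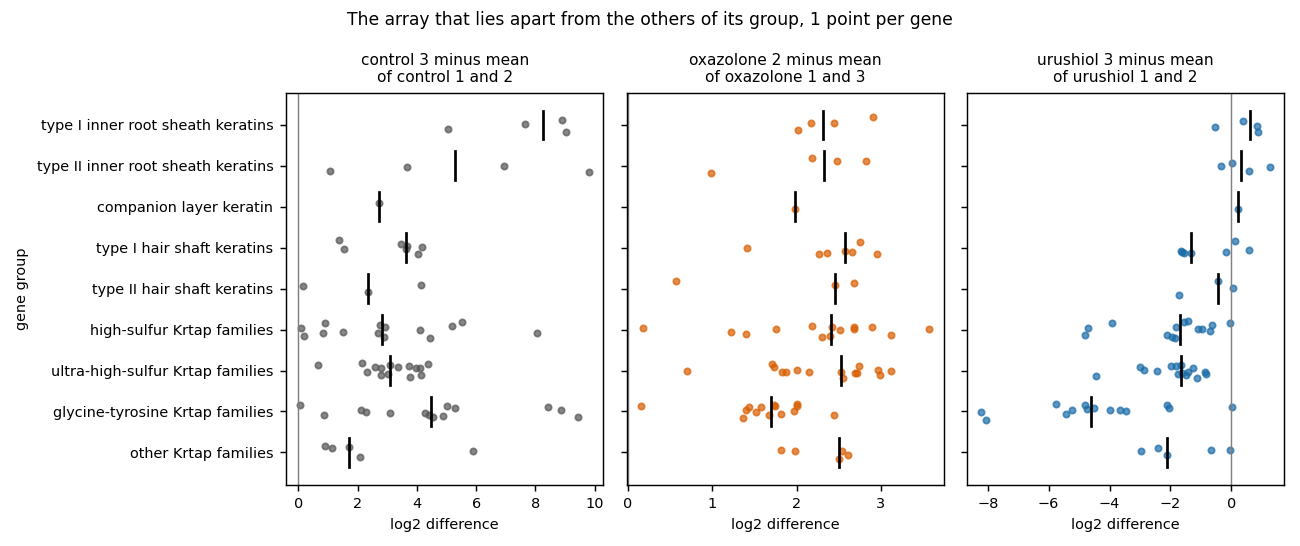
Log2 difference of the array that lay apart in each group from the mean of the other 2 arrays (horizontal axis, own scale per panel), 1 point per gene, with a bar at the median of each gene group. The points of control replicate 3 and oxazolone replicate 2 all lie above 0, and those of urushiol replicate 3 spread from 1.28 for Krt73 to -8.21 for Krtap19-1.

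Oxazolone replicate 2 differed from its group in a more even way. It exceeded the mean of oxazolone replicates 1 and 3 for all 67 members, by a median of 2.18. The medians were 2.31 for the inner root sheath keratins, 2.51 for the shaft keratins, 2.41 and 2.53 for the high-sulfur and ultra-high-sulfur families and 1.70 for the glycine-tyrosine families. Krtap24-1, a Krtap of the hair cuticle, had the widest gap, with 14.70 against 10.54 and 11.71.

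A few members departed from the common pattern. Krt84, a type II keratin best known from the nail and the tongue, lay at 5.56, 5.09 and 5.48 in control, 6.16, 6.66 and 6.02 in oxazolone and 6.81, 6.45 and 6.19 in urushiol skin. Control replicate 3 was not high for it, and every challenged array was above every control. Krtap13 stayed between 3.47 and 3.78 and Krtap20-2 between 4.22 and 4.67 on all 9 arrays, both under the median of all clusters. Krtap27-1 had controls of 5.42 to 5.72, with 6.15, 9.02 and 6.85 in oxazolone and 6.46, 6.78 and 5.52 in urushiol skin, so that urushiol replicate 3 fell within the control range.

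**Figure D4:**
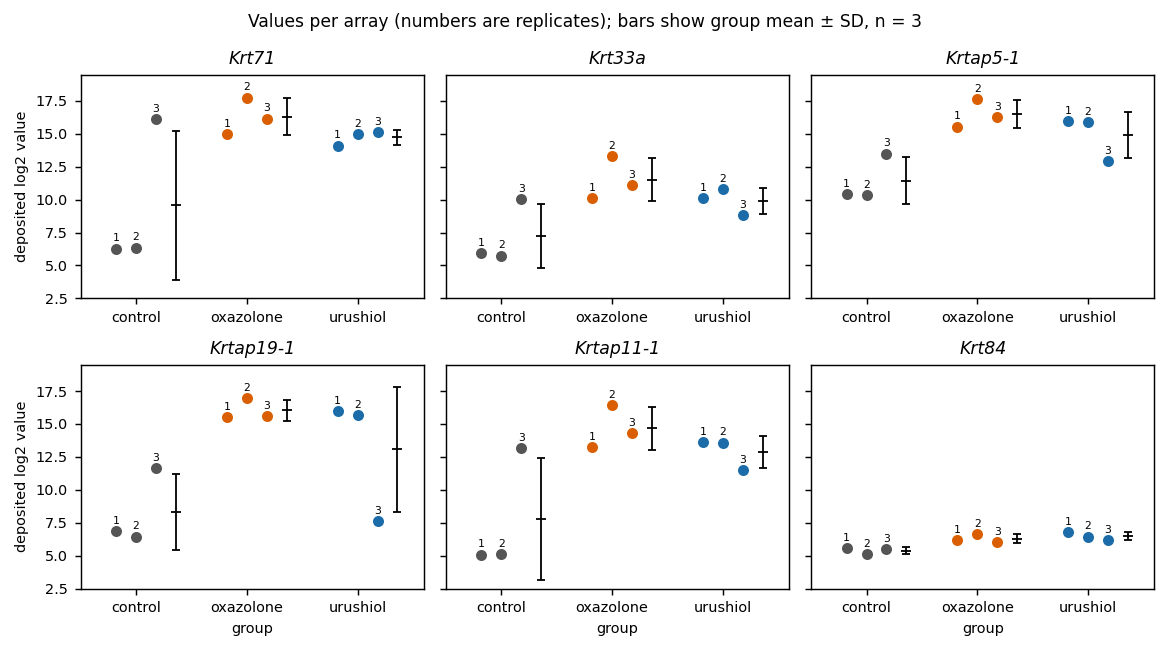
Deposited log2 value (vertical axis) of 6 genes on each array, with the replicate number above each point and the group mean ± SD (n = 3) beside it. Control replicate 3 lies with the challenged arrays for Krt71, urushiol replicate 3 lies near control replicates 1 and 2 for Krtap19-1, and the 3 groups of Krt84 keep to a narrow range of 5.09 to 6.81.

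In oxazolone against control skin, the difference was above 0 for every member, and 17 of 67 passed the test. Differences were tested two-sided with limma on all 9 arrays, and a gene was called where its p, adjusted by Benjamini-Hochberg across 30142 genes, was under 0.05. Those called were Krt84, the high-sulfur Krtap1-5 and Krtap24-1, and Krtap16-3, which was grouped with them by family number. Called too were the ultra-high-sulfur Krtap5-1, Krtap5-2, Krtap5-3, Krtap5-4, Krtap5-5 and Krtap9-3. The rest were the glycine-tyrosine Krtap19-3, Krtap19-4, Krtap19-9b, Krtap21-1 and Krtap6-2, and Krtap17-1 and Krtap28-13. Over all genes 9.63% were called higher and 6.92% lower, while of the members 17 were higher and 0 lower. The median difference of the members was 4.19, against 0.06 over all genes. Among those called, Krtap19-4 and Krtap19-9b each rose by 6.87 (SE 1.87 and 1.82, limma adjusted p = 0.0479 and 0.0441), Krtap28-13 by 6.79 ± 1.71 (0.0381), and Krtap5-1 by 5.05 ± 1.17 (0.03). The genes with the largest differences did not pass: Krtap22-2 stood at 8.81 ± 2.6 (limma adjusted p = 0.0592), Krtap7-1 at 8.75 ± 2.55 (0.0571) and Krtap8-1 at 8.16 ± 2.40 (0.059). None of the 8 inner root sheath keratins passed in limma, although all 8 had an unadjusted p under 0.05, as did 61 of the 67 members. The fit used a common spread per gene over the groups, though the spreads differed. For Krt71 the SD was 5.66 in control, 1.39 in oxazolone and 0.56 in urushiol skin. For Krtap19-1 it was 2.90, 0.79 and 4.74. Which members passed thus also depended on the spread in control and urushiol skin, and does not compare the gene groups. An exact permutation test of 3 against 3 arrays cannot go below p = 0.1.

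These calls rested on which arrays were used. Without control replicate 3, 57 members were called higher and 0 lower, with 15.8% and 10.8% of all genes, among them all 8 inner root sheath keratins and all 10 shaft keratins. Control replicate 3 was set aside for its high values of these same genes. The larger count, larger differences and smaller errors follow in part from that choice. They are given as a description, and the count is no test of these genes. Krt71 then stood 9.98 ± 0.78 (SE) above control, Krt25 9.34 ± 0.79 and Krtap7-1 11.90 ± 1.18. Without control replicate 1 or 2 or oxazolone replicate 2 or 3, limma called 0 members, with 40, 41, 46 and 54 at an unadjusted p under 0.05. Calls over all genes, both directions together, also became fewer in these fits, at 6.99%, 7.06%, 9.39% and 8.16% against 16.55% with all 9 arrays. Without oxazolone replicate 1, 4 members were called, 3 of them among the 17, with 8.22% of all genes. Without urushiol replicate 1 or 2, 8 and 5 members were called, all among the 17, with 14.83% and 11.92% of all genes. Without urushiol replicate 3, 15 were called, 10 of them among the 17, with 10.57% of all genes.

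In urushiol against control skin, which shares its controls with the comparison above, the difference was again above 0 for all 67 members, and 1 passed. Krt84 rose by 1.11 ± 0.23 (limma adjusted p = 0.0203), the gene whose controls lay within 5.09 to 5.56. Those values were near the medians of all clusters on the same arrays, 5.55, 5.53 and 5.55. With each of the 9 arrays left out in turn, this call was lost in 3 fits, and its call in oxazolone skin in 7. Of all genes 9.96% were called higher and 6.43% lower. The median over members was 2.39, against 0.04 over all genes, and 13 had an unadjusted p under 0.05. Krtap7-1 stood at 6.90 ± 2.55 (limma adjusted p = 0.111), Krtap22-2 at 6.63 ± 2.6 (0.128) and Krt71 at 5.16 ± 2.52 (0.211). The 3 members whose arrays did not overlap between these groups were Krt84, Krtap1-3 and Krtap20-2.

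Without control replicate 3, 32 members were called higher in urushiol skin and 0 lower, with 15.1% and 10.2% of all genes. They included 7 of the 8 inner root sheath keratins, 6 of 10 shaft keratins and 4 of 14 glycine-tyrosine genes. As above, these counts condition on the hair values of the control left out. Krt71 then stood 8.43 ± 0.78 (SE) above control, Krt25 7.76 ± 0.79 and Krtap19-1, which was not called, 6.43 ± 2.5. Leaving out urushiol replicate 3 as well gave 40 calls, with 20.37% of all genes called in either direction, and leaving out that array alone 3, with 8.06%, against 16.4% with all 9 arrays. Leaving out control replicate 2, urushiol replicate 1 or urushiol replicate 2 gave 0 in limma, with 1, 1 and 2 members at an unadjusted p under 0.05 and 7.36%, 7.26% and 10.4% of all genes called.

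**Figure D5:**
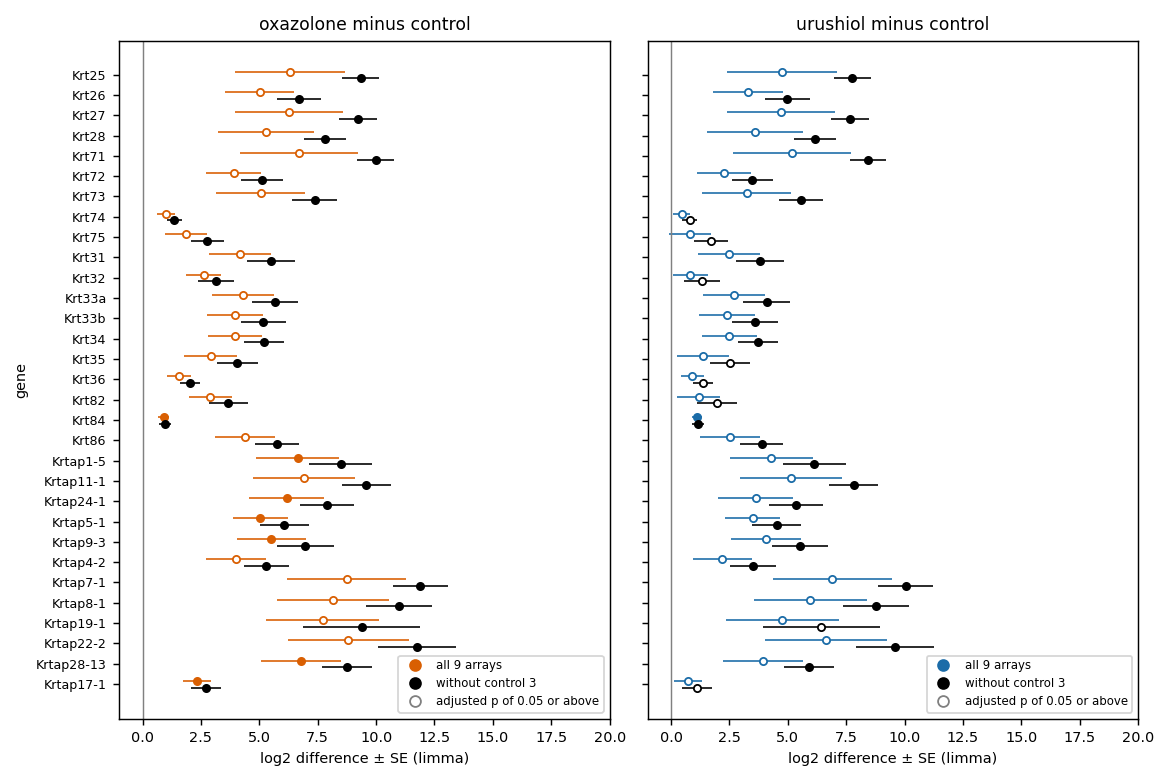
Difference from control skin ± SE (horizontal axis, log2 units, from limma) for the 19 keratins and 12 Krtap genes, with all 9 arrays (coloured) and without control replicate 3 (black). Filled points had a limma adjusted p under 0.05 in their own fit. For the black points this follows in part from leaving out control replicate 3 for its high hair values, and is a description. Krt71 moves from 6.71 to 9.98 in oxazolone skin and its SE from 2.52 to 0.78.

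Between the allergens, urushiol skin had lower values than oxazolone skin for 65 of 67 members, and none passed in limma, where 3 had an unadjusted p under 0.05. Over all genes 0.00664% were called higher and 0.00995% lower. The median difference of the members was -1.71, about as large as the pooled SD of 1.68 of the per-array median within groups. Krtap17-1 stood at -1.60 ± 0.61 (limma adjusted p = 0.785), Krtap21-1 at -1.71 ± 0.68 (0.804) and Krt32 at -1.81 ± 0.75 (0.838). All 3 urushiol arrays lay below all 3 oxazolone arrays for 18 members, against 4.39% of genes, and for Krt84 and Krtap20-2 the difference ran the other way, at 0.20 ± 0.23 and 0.14 ± 0.10. Without control replicate 3, limma again called 0 members (9 at an unadjusted p under 0.05), with 0.0232% of all genes higher and 0.0% lower. The 9 follow in part from leaving out that control for its high hair values. Leaving out oxazolone replicate 2 and urushiol replicate 3, the arrays highest and lowest in hair signal, moved the median to -0.25, with 16 members above 0, and leaving out oxazolone replicate 2 alone gave -0.90. A p that misses the threshold does not show that the allergens act alike.

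Of other proteins of the shaft and root sheath, a minority passed the test. Tchh, the trichohyalin gene of the inner root sheath, lay at 5.98, 6.2 and 15.57 in control, 14.42, 17.17 and 15.68 in oxazolone and 13.71, 15.06 and 14.02 in urushiol skin. Like Krt71, it was low in 2 controls only. Of 18 such genes, all measured, 5 passed in oxazolone skin (Tchhl1, Dsc2, Tgm1, Tgm3 and Gsdma) and 4 in urushiol skin (Dsc2, Tgm1, Tgm3 and Gsdma), all higher. Dsc2, Tgm1, Tgm3 and Gsdma are also made in the epidermis. Without control replicate 3, 14 and 12 passed, all higher, with 15.8% and 15.1% of all genes called higher. Of 15 transcription factors and signals of the growing bulb 14 were measured, all but Gata3. Ovol1, which is also an epidermal factor, was the only 1 called in either comparison. Without control replicate 3, Hoxc13, Foxn1, Msx2 and Lef1 joined it in oxazolone skin, and none did in urushiol skin. That array was set aside for its high hair signal, so the added passes of both lists follow in part from that choice. Lef1, a nuclear partner of Wnt signalling in the bulb, lay at 5.69, 6.01 and 9.28 in control, 7.92, 10.60 and 8.98 in oxazolone and 6.96, 7.94 and 8.43 in urushiol skin.

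The levels of markers of other cell types are given beside the hair genes, and their part in the differences was not tested. With all arrays, limma called 0 of 10 melanocyte genes in either comparison with control, 2 and 1 of the cell division genes higher in oxazolone and urushiol skin, and 14 and 13 of the skeletal muscle genes lower. The mean over 10 melanocyte genes was 6.16 and 6.12 in control replicates 1 and 2, 8.26 in control replicate 3, 7.75 to 9.88 in oxazolone and 7.04 to 7.75 in urushiol skin. For 9 of 10 cell division genes measured, the mean was 7.68, 7.27 and 9.51 in control, 9.66 to 9.82 in oxazolone and 9.54 to 9.81 in urushiol skin. The mean over 14 skeletal muscle genes was 17.63, 17.59 and 15.19 in control, 6.98 to 8.96 in oxazolone and 11.16 to 11.89 in urushiol skin. Resting follicle and stem cell genes, 10 of 10, had means of 9.40 to 10.09 in control, 8.63 to 8.96 in oxazolone and 8.15 to 8.76 in urushiol skin. Of these, Krt15, Cd34, Nfatc1 and Fgf18 were called lower in both comparisons with control, and the other 6 were not called. For 12 interfollicular keratinocyte genes the means were 14.07 to 14.71, 14.62 to 15.01 and 15.02 to 15.19, and for 8 of 9 stress genes of keratinocytes 7.31 to 9.09, 14.21 to 15.52 and 15.49 to 17.10. Those of 9 of 10 adipocyte genes were 11.17 to 11.95, 9.29 to 9.70 and 9.59 to 10.17, and of 10 leukocyte genes 7.92 to 8.16, 8.58 to 9.21 and 8.46 to 8.86. In oxazolone and urushiol skin, 7 and 8 of 8 stress genes were called higher, and 8 and 7 of 9 adipocyte genes lower. Interfollicular genes had 3 and 6 higher and 1 lower in each, and leukocyte genes 3 higher and 1 lower in each. Over all genes 9.63% and 9.96% were called higher, and 6.92% and 6.43% lower.

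Outside the rule, 13 clusters with several symbols named a hair gene. The cluster shared by Krt81 and Krt83 lay at 6.37, 6.18 and 10.32 in control, 10.50, 13.48 and 11.14 in oxazolone and 10.26, 10.66 and 9.24 in urushiol skin. The gene whose pattern was most like the members was Gm7579, with a Pearson correlation of 0.994 over 9 arrays to the mean of the 65 members above the median of all clusters. Gm7138, Gm11596, Gm11568, Gm3250, Tchhl1, Gm3238, Gm4553, Gm9736 and Gm2431 followed, down to 0.986. Of these 10 genes Tchhl1, a trichohyalin relative, was the only 1 with a name other than a predicted-gene symbol. Other predicted-gene symbols, such as Gm11937 and Gm11938, shared a cluster with Krtap2-4. Whether the predicted genes listed here are Krtap genes was not checked. These correlations are descriptions that rest largely on the arrays set apart above.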

How the data were processed

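The deposited values were log2 expression values that the authors made with RMA in Affymetrix Expression Console 1.4 and Transcriptome Analysis Console, per the submitters' processing notes; for the build, none is given in the sources used here. Each gene was represented by its single-symbol cluster with the highest mean over 9 arrays, and limma 3.58.1 (R 4.3.3) was fitted on 30142 genes after a check on simulated data. Members, lists and alternatives were chosen with earlier results of these data known. Named were all keratins, the member with the highest mean of each Krtap family, up to 10 called members per direction and the 5 members each with the smallest and largest difference of control replicate 3. Krtap1-3, Krtap5-3, Krtap5-5, Krtap9-5, Krtap19-3, Krtap19-5 and Krtap31-1 were named after their values were seen. Krtap classes follow families as commonly grouped, assigned after the files were read, in place of the planned protein composition. Same-numbered oxazolone and urushiol arrays deviated together over genes (correlations 0.20, 0.20 and 0.12), against -0.18 to 0.02 for differently numbered ones. With the controls, number 1 did so too (0.34 and 0.12), but numbers 2 and 3 did not (-0.23 to 0.06), so controls were not taken as paired. Differently numbered pairs with a control ran from -0.29 to 0.28, so a pairing by number, seen in the data alone, was not established. Array number limits precision. The alternatives covered clusters per gene, normalisation, a filter, weights, the replicate block and arrays left out.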

Additional observations from a re-analysis of the deposited data

How the results depend on the processing

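Calls in oxazolone against control skin numbered 17 with all arrays (16.55% of all genes called), 50 of 65 members tested with a filter on dim genes (34.55%), 50 with array weights, which put control replicate 3 at 0.349 (25.51%), and 4, or 5.97% of members, with only the 2 groups compared (7.29%). With a replicate block there were 3 (16.86%); same-numbered control and oxazolone arrays correlated at 0.34, -0.16 and -0.05, so the numbers were not taken to pair them. Left out in turn, the arrays gave 0 to 57, with 6.99% to 26.6% of all genes called. Leaving out control replicate 3 and urushiol replicate 3 together, an alternative added after seeing the data like the next, gave 55 (22.75% of all genes). Leaving out oxazolone replicate 2 and urushiol replicate 3 gave 2, or 2.985% of members (5.096% of all genes). In urushiol against control skin, with 1 call (16.4% of all genes), array weights gave 16, or 23.88% of members, under the 26.99% of all genes. The arrays left out in turn gave 0 to 32, with 7.262% to 25.4% of all genes. The 2 added alternatives gave 40 and 2, or 59.7% and 2.985% of members, with 20.37% and 4.691% of all genes. The median difference over all sets of arrays left out was 1.692 to 4.18. The cause was not tested. Between the allergens the replicate block, on 9 arrays or on the 6 challenged arrays, gave 0 calls in limma, with 1 and 14 members at an unadjusted p under 0.05, and changed no other call there. Uncalled differences between the allergens turned above 0 without oxazolone replicate 2 and urushiol replicate 3, and for Krtap1-3 also without oxazolone replicate 2 alone (0.062). Over all sets of arrays left out they were -0.743 to 0.295 for Krtap1-3, -3.033 to 0.365 for Krtap14, -4.398 to 0.23 for Krtap19-1, -3.057 to 0.145 for Krtap22-2, -2.197 to 0.01 for Krtap26-1, -1.682 to 0.12 for Krtap27-1, -2.49 to 0.305 for Krtap31-1, -2.24 to 0.26 for Krtap31-2, -2.078 to 0.02 for Krtap5-1, -2.092 to 0.405 for Krtap9-3 and -3.013 to 0.78 for Krtap9-5. No named member turned in either comparison with control. At least 3 arrays held equal values for 47.8% of all genes and 2.99% of members.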
